A study of Mus musculus with 9 samples.

Results

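The genes described are 10 members of the KIT and fibroblast growth factor (FGF) receptor signaling families, chosen by gene symbol: the receptors *Kit*, *Fgfr1*, *Fgfr2* and *Fgfr3*, the receptor *Fgfrl1*, the ligands *Kitl*, *Fgf2* and *Fgf7*, and the feedback inhibitors *Spry2* and *Spry4*. Each member was found in 1 row of the 23332 gene rows measured by RNAseq. FVB MOE cells, a monoclonal line of secretory mouse oviductal epithelial cells, were kept without hormone for 48 h before a 24 h exposure to the solvent DMSO at 0.1%, to 1 nM 17β-estradiol (E2) or to 100 nM 4-hydroxytamoxifen (4OHT), a selective estrogen receptor modulator. Each condition had 3 samples with the replicate numbers 1 to 3 in the labels, and no sample received both ligands. The comparisons ask which of these genes differ after each ligand relative to the solvent, and between the ligands, whose doses differ. All samples come from 1 clone. The labels do not say whether the 3 samples of a condition were separate cultures, so the p-values hold only for these samples.

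KIT is a receptor tyrosine kinase of the cell surface that dimerises when it binds stem cell factor, the product of *Kitl*, and it is best known from mast cells, melanocytes, germ cells and blood progenitors. The FGF receptors are related kinases that bind FGF ligands together with heparan sulfate, and like KIT they pass the signal through adaptors to the RAS-MAPK cascade, to PI3 kinase and to STAT factors. Sprouty proteins are induced by such signaling and dampen the cascade, which makes their transcripts a common readout of receptor activity.

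The deposited unit is FPKM, in which reads are divided by transcript length and by the size of the library, so that levels can be compared between genes. The step between low FPKM values gave approximate depths of 35.5 to 51.2 M reads per sample, with the 4OHT samples at 35.5 to 40.0 M below each DMSO sample at 43.3 to 51.2 M. At these depths, and with the longest annotated transcript as the length, each *Kit* value rests on roughly 194 to 2553 reads and each *Fgf7* value on roughly 111 to 477. Exact zeros occurred in genes that were otherwise well expressed. In all, 266 rows held at least 1 exact 0 beside a median of 5 FPKM or more in the other samples, with 80 to 109 such rows at 0 in any 1 sample, and *Fgfr1* was 1 of them. The secretory marker *Pax8* lay between 105 and 150 FPKM and *Krt7*, *Krt8*, *Krt18* and *Krt19* between 112 and 927. *Epcam* was at most 0.138 FPKM, *Cdh1* at most 0.422 and the mesenchymal filament gene *Vim* at least 1641, so that these epithelial and mesenchymal markers were not at the levels the label of an epithelial line implies. *Foxj1*, a transcription factor of ciliated cells, was at 8.95 to 15.9 FPKM. Other ciliated cell markers were lower, with *Dnaic1* at most 0.0570 FPKM, *Cdhr3* at most 0.00775, and *Ccdc39*, *Rsph1* and *Tppp3* between 1.00 and 3.86, whereas *Tubb4b* was at 395 to 561. The sum over 10 secretory markers, mostly keratin genes, was 1425 to 1570 FPKM with DMSO, 2327 to 2572 with E2 and 1480 to 1684 with 4OHT. Not every secretory marker was higher with E2. In the same order of conditions, the means were 119, 133 and 120 FPKM for *Pax8*, but 2.24, 1.65 and 1.70 for *Ovgp1* and 9.59, 8.40 and 9.62 for *Cldn4*. The sum over 5 endothelial markers, mostly *Kdr*, was 0.638 to 0.837, 1.18 to 1.42 and 0.722 to 0.870. Over the 3 conditions in the same order, 8 stromal markers, mostly *Vim*, summed to 1649 to 1909, 1687 to 1940 and 1658 to 2056 FPKM, 5 smooth muscle markers, mostly *Acta2*, to 947 to 1451, 1301 to 1757 and 1262 to 1553, and 7 ciliated cell markers, mostly *Tubb4b*, to 425 to 551, 416 to 443 and 458 to 582. Leukocyte markers were near 0 throughout and summed, in the same order, to 0.102 to 0.192, 0.217 to 0.327 and 0.189 to 0.264 FPKM. The part of these markers and of depth in the results below was not tested.

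The start regions of the members that passed a test below are shown first. RefSeq, on build GRCm38.p6, gave windows of 250 bases before and 50 bases after the start for 8 of the 10 members, all but *Fgfr1* and *Spry4*. The bases before the start and outside the annotated exons are printed 5′ to 3′ on the coding strand, for *Kit* (chr5:75574737-75574915, plus strand), *Fgfrl1* (chr5:108693979-108694228, plus strand) and *Spry2* (chr14:105896820-105897069, minus strand). The *Fgfrl1* window precedes a RefSeq start that lies inside the gene interval GENCODE gives, whose first base is chr5:108692382, and so is not the outermost annotated start. Capitals mark the SP1 box GGGCGG and the ETS letters CCGGAA.
Kit: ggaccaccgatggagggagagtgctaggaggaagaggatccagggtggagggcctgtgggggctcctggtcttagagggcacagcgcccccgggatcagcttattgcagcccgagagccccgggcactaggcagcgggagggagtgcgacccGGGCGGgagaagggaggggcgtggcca
Fgfrl1: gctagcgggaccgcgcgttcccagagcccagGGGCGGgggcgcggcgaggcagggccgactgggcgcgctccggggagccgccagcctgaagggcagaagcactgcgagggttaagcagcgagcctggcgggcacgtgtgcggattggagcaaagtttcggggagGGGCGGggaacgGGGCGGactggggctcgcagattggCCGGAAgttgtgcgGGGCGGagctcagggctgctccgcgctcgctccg
Spry2: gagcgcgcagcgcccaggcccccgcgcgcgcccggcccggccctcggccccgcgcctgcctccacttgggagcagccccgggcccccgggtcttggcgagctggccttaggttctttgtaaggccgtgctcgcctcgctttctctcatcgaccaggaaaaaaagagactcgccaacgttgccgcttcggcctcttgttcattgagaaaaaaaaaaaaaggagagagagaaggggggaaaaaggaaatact

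Both strands of each window were searched for 5 motifs. The palindromic estrogen response element, GGTCA and TGACC with 3 bases between them, stood in none of the 8 members' windows, and in 0.07001% of all 32851 promoter windows. Its single arm GGTCA was present for *Fgfr3*, *Fgf7* and *Spry2*, against 40.48% of all windows, and in *Spry2* it lay after the start and so outside the printed bases. The SP1 box was present 1 time for *Kit* and 4 times for *Fgfrl1*, and it was also found for *Kitl*, *Fgfr3* and *Fgf2*, against 35.66% of all windows. The box holds only G and C, and these members' windows had 62.67% to 73.67% G and C, against a median of 52.67% over all windows. The ETS letters were present for *Fgfrl1*, *Kitl* and *Spry2*, again after the start in *Spry2*, against 14.9%. The AP-1 letters TGANTCA were found for none of the 8, against 7.808%. A match describes letters in a window and not a bound site.

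Without the replicate number in the model, no member passed the test in any comparison. With the replicate number as a block, 3 of the 10 members were higher with E2 than with DMSO, namely *Kit*, *Fgfrl1* and *Spry2*, and 2 of them, *Kit* and *Fgfrl1*, were also higher with E2 than with 4OHT. No member passed between 4OHT and DMSO in either fit. With the block, the p-values rest on the spread left after condition and replicate number are taken out, not on the spread between the samples of a condition. The test was limma's moderated statistic, two-sided, on log2(FPKM + 1) of the 11339 rows with at least 1 FPKM in at least 3 samples, all 10 members among them, with Benjamini-Hochberg adjustment over all of these rows and a threshold of 0.05.

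These counts have to be read against those over all tested rows. Between E2 and DMSO, 0.512% of all rows passed without the block and 15% with it, with 10.4% higher and 4.63% lower with E2. Between E2 and 4OHT the shares were 0.159% without and 16.2% with the block, with 8.63% higher and 7.6% lower with E2. Between 4OHT and DMSO the share was 0% in both fits. At an unadjusted p under 0.05 without the block, 2 members passed for E2 and 1 for 4OHT against DMSO, and 0 between the ligands, against 10.9%, 2.76% and 11.5% of all rows. With the block the corresponding counts were 4, 2 and 3 members, against 32.9%, 13.1% and 37.2%. The median log2 fold change of the 10 members was 0.07 for E2 versus DMSO, 0.01 for 4OHT versus DMSO and 0.06 for E2 versus 4OHT, where the medians of all tested rows were 0.00, 0.03 and -0.01. The first includes *Fgfr1* with its exact 0, and it was 0.044 in the blocked fit that treats such zeros as missing.

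**Figure D1:**
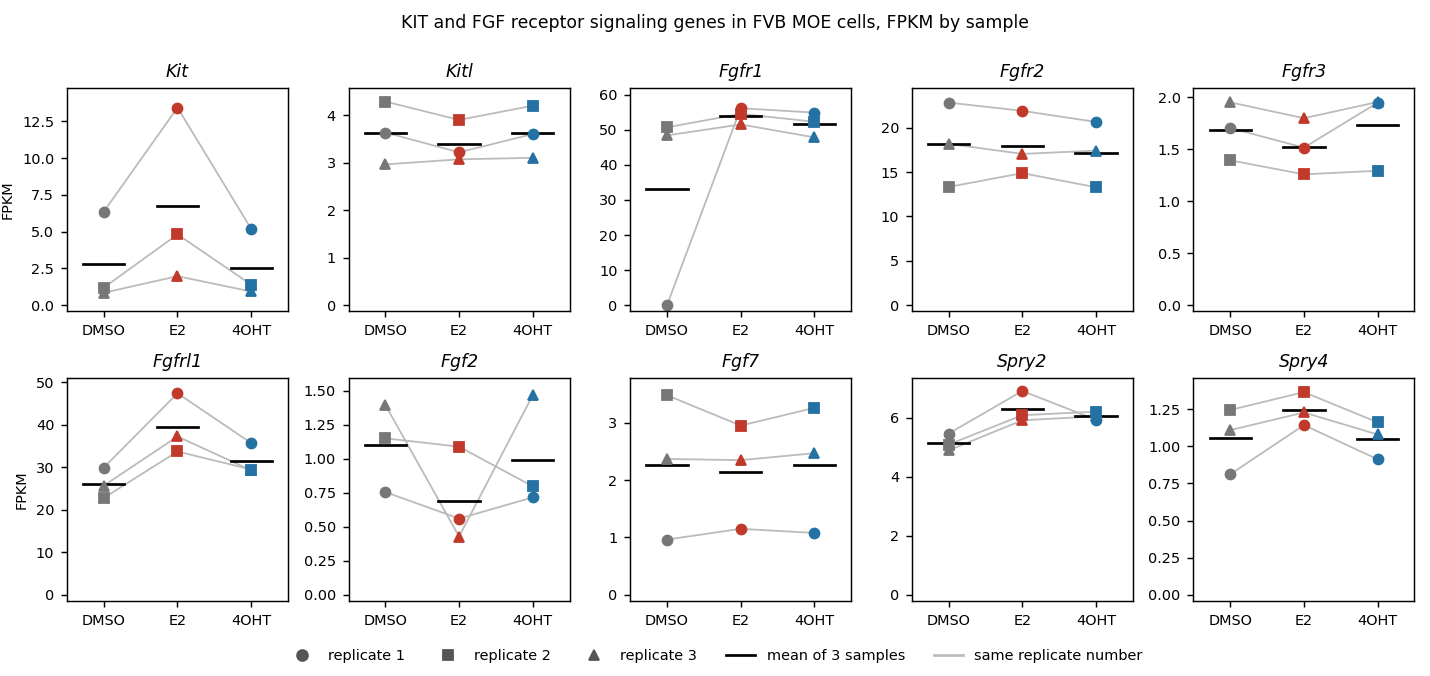
FPKM (linear axes from 0, a scale of its own in each panel) of the 10 genes in every sample, by condition, with grey lines joining samples of the same replicate number and black bars for the means of 3 samples. *Kit* went up from DMSO to E2 within each replicate number, from 6.36 to 13.4, from 1.19 to 4.81 and from 0.841 to 1.97 FPKM, while the replicate numbers themselves were far apart, and *Fgfr1* was listed at 0 in 1 DMSO sample.

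*Kit* (Ensembl ENSMUSG00000005672, GRCm38 chr5:75574916-75656722, plus strand) had the widest relative range of the 10 genes among nonzero values, taken as the ratio of the highest to the lowest sample. Its level was 6.36, 1.19 and 0.841 FPKM in DMSO replicates 1, 2 and 3, 13.4, 4.81 and 1.97 FPKM with E2 and 5.18, 1.40 and 0.926 FPKM with 4OHT. In each condition replicate 1 was the highest and replicate 3 the lowest, and the ranges of all 3 conditions overlapped. Within each replicate number the E2 sample was the highest, at 2.11, 4.04 and 2.34 times the DMSO sample and 2.59, 3.44 and 2.12 times the 4OHT sample, whereas the ratios of 4OHT to DMSO were 0.816, 1.17 and 1.10.

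On the log2(FPKM + 1) scale, which understates the change of genes near 1 FPKM, the *Kit* difference between E2 and DMSO was 1.02 with a standard error of 0.747 and an adjusted p of 0.658 in limma without the block. With the block the same difference had a standard error of 0.153 and an adjusted p of 0.0106. For E2 versus 4OHT the difference was 1.04, with an adjusted limma p of 0.562 without and 0.0127 with the block. For 4OHT versus DMSO it was -0.02, and its 95% interval with the block ran from -0.39 to 0.35. The blocked call between E2 and DMSO was lost when the samples of replicate number 1 or 2 were left out, with adjusted limma p-values of 0.0659 and 0.0789, and was kept without number 3, at 0.0420. The blocked call between E2 and 4OHT was likewise lost without number 1 or 2, at adjusted limma p-values of 0.0986 and 0.0830, and kept without number 3, at 0.0441. Without the block, leaving out 1 sample at a time moved the *Kit* difference between E2 and DMSO from 0.42 without E2 replicate 1 to 1.65 without DMSO replicate 1, with 0.65 without DMSO replicate 3 and 1.56 without E2 replicate 3. The difference between E2 and 4OHT moved from 0.44 without E2 replicate 1 to 1.58 without E2 replicate 3. In bulk RNA, more cells with *Kit* transcripts and more transcripts per cell cannot be told apart.

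Markers of the cell types that are rich in *Kit* were examined beside it. Of 8 mast cell markers, *Cpa3*, *Tpsb2*, *Mcpt4* and *Fcer1a* were at 0 in all 9 samples and *Tpsab1*, *Cma1* and *Hdc* were at most 0.0874 FPKM, whereas *Ms4a2* was at 75.4 to 124 FPKM. The sum over the 8 genes, nearly all *Ms4a2*, was 90.8 to 121 FPKM with DMSO, 75.5 to 104 with E2 and 94.5 to 124 with 4OHT, and was thus not above the DMSO range in any E2 sample. Of 6 melanocyte markers, *Dct* was at 0 in all samples, *Tyr* reached 1.57 FPKM, and the sum was 1.60 to 2.05 FPKM with DMSO and 1.64 to 1.79 with E2.

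*Kitl*, which encodes stem cell factor, the ligand of KIT (ENSMUSG00000019966, chr10:100015630-100100416, plus strand), was expressed in every sample. It was at 3.64, 4.29 and 2.97 FPKM with DMSO, 3.22, 3.91 and 3.08 FPKM with E2 and 3.61, 4.21 and 3.11 FPKM with 4OHT. Replicate 2 was the highest and replicate 3 the lowest in each condition, and the conditions overlapped. The log2 difference between E2 and DMSO was -0.07, with a 95% interval of -0.38 to 0.24 without and -0.18 to 0.04 with the block. *Kitl* thus exceeded *Kit* in each sample of replicates 2 and 3 except E2 replicate 2, and lay below it in all 3 samples of replicate 1.

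*Fgfrl1* encodes an FGF receptor that lacks the kinase domain (ENSMUSG00000008090, chr5:108692382-108706924, plus strand). It was at 29.9, 22.8 and 25.7 FPKM with DMSO, 47.4, 33.7 and 37.2 FPKM with E2 and 35.7, 29.4 and 29.3 FPKM with 4OHT. All 3 E2 samples lay above all 3 DMSO samples, while the 4OHT range overlapped both. The E2 samples were at 1.58, 1.48 and 1.45 times the DMSO samples of the same number and the 4OHT samples at 1.19, 1.29 and 1.14 times.

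The log2 difference of *Fgfrl1* between E2 and DMSO was 0.57, with a standard error of 0.147 and an adjusted limma p of 0.223 without the block, and a standard error of 0.048 and an adjusted p of 0.00185 with it. This blocked call was kept with any 1 replicate number left out, at adjusted limma p-values of 0.0239 to 0.0423. The difference between E2 and 4OHT was 0.31 and had an adjusted limma p of 0.460 without and 0.0146 with the block, and it was lost with any 1 replicate number left out, at 0.0533 to 0.104. Without the block and without E2 replicate 1 this difference was 0.17. Between 4OHT and DMSO the difference was 0.26, higher in 3 of 3 pairs, with an unadjusted limma p of 0.00147 and an adjusted p of 0.321 with the block.

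**Figure D2:**
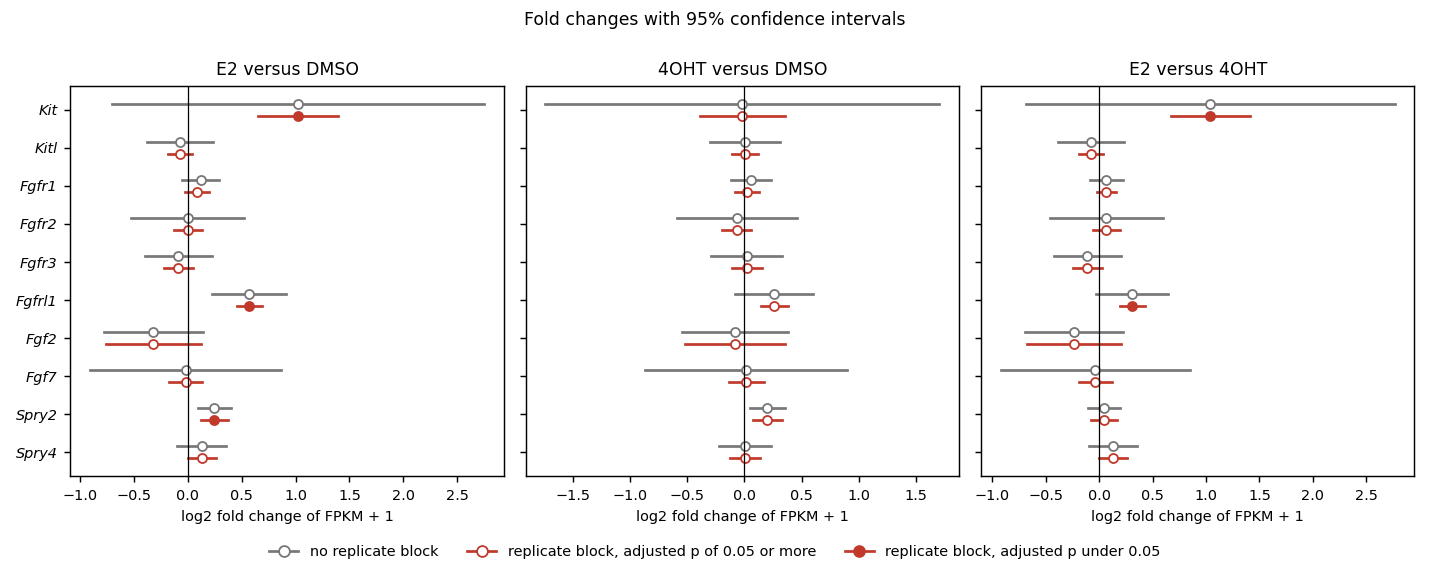
Log2 fold changes of FPKM + 1 (horizontal axis) of the 10 genes in the 3 comparisons with 95% confidence intervals from limma, in grey without and in red with the replicate number as a block, filled where the adjusted p was under 0.05. The fold changes for *Fgfr1* take its 1 exact 0 as missing. The interval of *Kit* for E2 versus DMSO ran from -0.70 to 2.75 without the block and from 0.65 to 1.39 with it.

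*Spry2*, a feedback inhibitor of receptor tyrosine kinase signaling (ENSMUSG00000022114, chr14:105891947-105896819, minus strand), had the narrowest relative range of the members without an exact 0. Its level was 5.46, 5.09 and 4.89 FPKM with DMSO, 6.90, 6.08 and 5.91 FPKM with E2 and 5.93, 6.20 and 6.04 FPKM with 4OHT. Every E2 sample and every 4OHT sample lay above every DMSO sample, and the E2 and 4OHT ranges overlapped. The log2 difference between E2 and DMSO was 0.25, with an adjusted limma p of 0.242 without and 0.0279 with the block, and this call was lost with any 1 replicate number left out, at 0.0717 to 0.165. The difference between 4OHT and DMSO was 0.20, higher in 3 of 3 pairs, with an adjusted limma p of 1.00 without and 0.376 with the block. Between E2 and 4OHT the difference was 0.05, with a 95% interval of -0.08 to 0.17 in the fit with the block.

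*Spry4* (ENSMUSG00000024427), the second sprouty gene of the set, was weakly expressed, and its values were 0.811, 1.24 and 1.11 FPKM with DMSO, 1.14, 1.36 and 1.23 FPKM with E2 and 0.912, 1.16 and 1.08 FPKM with 4OHT. The E2 sample was the highest of its replicate number in all 3, although the ranges overlapped. The log2 difference between E2 and DMSO was 0.13, with an adjusted limma p of 0.663 without and 0.148 with the block. Between E2 and 4OHT it was 0.13, with an adjusted limma p of 0.573 without and 0.133 with the block.

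*Fgfr1*, the most abundant of the receptors (ENSMUSG00000031565, chr8:25513654-25575718, plus strand), was listed at 0 in DMSO replicate 1 and at 50.7 and 48.4 FPKM in the other DMSO samples. It was at 56.2, 54.6 and 51.5 FPKM with E2 and at 54.9, 52.3 and 47.9 FPKM with 4OHT. The 8 nonzero values thus spanned 1.17-fold, and the 0 stood alone. With the 0 kept as a value the log2 difference between E2 and DMSO was 2.01, with an adjusted limma p of 0.637 without and 0.319 with the block. With the 0 taken as missing, which leaves 2 DMSO samples, it was 0.12 without and 0.09 with the block, at adjusted limma p-values of 0.597 and 0.228. No direction against DMSO is therefore given for *Fgfr1*.

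*Fgfr2* (ENSMUSG00000030849, chr7, minus strand), whose epithelial splice form is the receptor for FGF7, was at 22.8, 13.3 and 18.2 FPKM with DMSO, 21.9, 14.9 and 17.0 FPKM with E2 and 20.6, 13.3 and 17.4 FPKM with 4OHT. The replicate numbers kept their order in each condition, and the conditions lay on top of each other. The log2 difference between E2 and DMSO was 0.00, with a 95% interval of -0.13 to 0.13 in the limma fit with the block. *Fgfr3* (ENSMUSG00000054252, chr5:33721674-33737068, plus strand) was between 1.26 and 1.95 FPKM and was lower with E2 than with DMSO in 3 of 3 pairs, by 0.09 on the log2 scale on average, which did not pass in limma, with an adjusted p of 0.829 without and an adjusted p of 0.313 with the block. FPKM per gene do not separate the splice forms of these receptors.

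*Fgf7*, keratinocyte growth factor, which stromal cells usually supply to epithelia (ENSMUSG00000027208, chr2:126034658-126091185, plus strand), was at 0.963, 3.48 and 2.37 FPKM with DMSO, 1.15, 2.95 and 2.35 FPKM with E2 and 1.08, 3.26 and 2.47 FPKM with 4OHT. Replicate 1 was the lowest in every condition, the reverse of its place for *Kit* and *Fgfr2*. The log2 difference between E2 and DMSO was -0.02, with a 95% interval of -0.90 to 0.87 without and -0.18 to 0.14 with the block.

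*Fgf2*, basic FGF (ENSMUSG00000037225, chr3:37348346-37410108, plus strand), was the weakest member, at 0.755, 1.15 and 1.39 FPKM with DMSO, 0.560, 1.09 and 0.428 FPKM with E2 and 0.716, 0.797 and 1.47 FPKM with 4OHT. It was lower with E2 than with DMSO in 3 of 3 pairs, and the E2 range overlapped both others. The log2 difference was -0.32, with an adjusted limma p of 0.612 without and 0.272 with the block, and the samples of the same replicate number did not move together here as they did for the other ligands.

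By the median over the 9 samples, the order of levels was *Fgfr1* at 51.5 FPKM, *Fgfrl1* at 29.9, *Fgfr2* at 17.4, *Spry2* at 5.93, *Kitl* at 3.61, *Fgf7* at 2.37, *Kit* at 1.97, *Fgfr3* at 1.70, *Spry4* at 1.14 and *Fgf2* at 0.797. Leaving aside the 0 of *Fgfr1*, the ranges of *Fgfr1* and *Fgfrl1* did not overlap, nor did those of *Fgfr2* and *Spry2* or of *Spry2* and *Kitl*. The neighbours from *Kitl* downward overlapped, and *Fgf7* exceeded *Kit* in 5 of 9 samples, so that the order of these weak genes depends on the sample. *Fgfrl1* exceeded *Fgfr2* in 9 of 9 samples although their ranges touched.

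Pairs of the same replicate number gave a further view of the 10 members. With E2, 5 members were higher than with DMSO in all 3 pairs (*Kit*, *Fgfr1*, *Fgfrl1*, *Spry2* and *Spry4*) and 2 were lower in all 3 (*Fgfr3* and *Fgf2*), against 28.1% and 24.3% of all tested rows. In *Fgfr1* pair 1 rests on the exact 0, and the other 4 members were higher without recourse to a 0. With 4OHT, 2 members were higher than with DMSO in all 3 pairs (*Fgfrl1* and *Spry2*) and 1 was lower (*Fgfr2*), against 30.2% and 15.6%. Between the ligands, 4 members were higher with E2 in all 3 pairs (*Kit*, *Fgfr1*, *Fgfrl1* and *Spry4*) and 2 lower (*Fgfr3* and *Kitl*), against 24.3% and 30.9%. The E2 and DMSO ranges did not overlap for 3 members (*Fgfr1*, *Fgfrl1* and *Spry2*), against 15.2% of all tested rows, with *Fgfr1* at 50.7 FPKM in the higher nonzero DMSO sample and 51.5 in the lowest E2 sample, and the 4OHT and DMSO ranges for 1 (*Spry2*), against 7.94%. The E2 and 4OHT ranges overlapped for every member, where 18.3% of all tested rows did not overlap.

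The replicate number went with more of the variation than the condition did in 6 of the 9 members without an exact 0. Of the sum of squares of log2(FPKM + 1) over the 9 samples, replicate number took 98.4% for *Fgf7*, 95.3% for *Fgfr2*, 90.1% for *Kitl*, 83.2% for *Fgfr3*, 73.3% for *Kit* and 60.1% for *Spry4*. Condition took 76.4% for *Spry2* and 66.7% for *Fgfrl1*, where replicate number took 11.5% and 31.1%. For *Kit*, condition took 24.4% and only 2.33% was left to neither. Over the 11094 tested rows without an exact 0, the medians were 51.4% for replicate number and 26.7% for condition. What the replicate number stands for is not given in the labels.

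**Figure D3:**
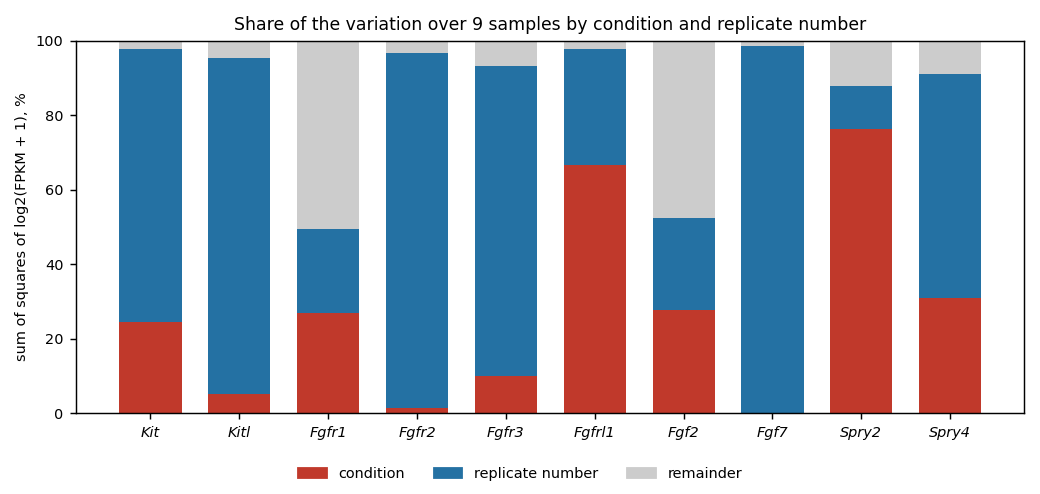
Share of the sum of squares of log2(FPKM + 1) over 9 samples (vertical axis, %) that went with condition (red), with replicate number (blue) and with neither (grey), for each of the 10 genes. Replicate number took 98.4% for *Fgf7* and condition 76.4% for *Spry2*, and the remainder for *Fgfr1* comes from its 1 exact 0.

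The rest of the pathway was described with a list of 111 other genes in 6 roles, of which 109 were in the files and 78 were tested. Between E2 and DMSO, 2 of the 78 passed without the block, both higher with E2. They were *Errfi1*, an inhibitor of EGF receptor family kinases, and *Fos*, an immediate early transcription factor downstream of MAPK. *Errfi1* was at 63.3, 53.8 and 60.1 FPKM with DMSO, 91.8, 90.9 and 96.7 FPKM with E2 and 64.9, 64.9 and 69.9 FPKM with 4OHT, and its log2 difference of 0.65 had an adjusted limma p of 0.0122. *Fos* was at 3.48, 2.29 and 3.78 FPKM with DMSO, 9.90, 7.11 and 10.5 FPKM with E2 and 4.46, 3.60 and 5.13 FPKM with 4OHT, and its log2 difference of 1.28 had an adjusted limma p of 0.0422. In both genes all 3 E2 samples lay above all 6 others.

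With the block, 25 of the 78 genes passed between E2 and DMSO, 17 higher and 8 lower, or 32.1% against 15% of all tested rows. The list was chosen with earlier results of these data known. It holds *Jak2* and *Ccnd1*, which the paper names as changed by E2, so these shares do not test for an excess of pathway genes. Among the adaptors and proximal signaling genes, 8 of 26 rose and 1 fell. The largest rises were in *Jak2*, the kinase of cytokine receptors, by 0.91 on the log2 scale, in its substrate *Stat5a* by 0.68 and in the docking protein gene *Gab2* by 0.56, and the Src-family kinase gene *Fyn* fell by 0.18. *Jak2* stood at 30.6, 19.5 and 19.3 FPKM with DMSO and at 54.2, 41.0 and 36.5 FPKM with E2, without overlap. In the RAS-MAPK cascade *Map2k1*, the gene of a kinase that phosphorylates ERK, rose by 0.18 and *Nras* by 0.14, and none fell.

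Among 13 tested receptors, co-receptors and ligands of related receptors, the heparan sulfate proteoglycan genes *Gpc4* and *Sdc2* rose by 0.29 and 0.19, whereas *Gpc1* fell by 0.32, the fourth FGF receptor gene *Fgfr4* fell by 0.30 and *Csf1*, the ligand of the CSF1 receptor, fell by 0.18. Among 9 tested transcriptional targets, *Fos*, *Ets2* and *Egr1* rose, the last 2 by 0.52 and 0.32, and *Ccnd1*, *Myc* and *Etv4* fell by 0.54, 0.26 and 0.20. *Myc* and *Etv4* were near the threshold, at adjusted limma p-values of 0.0463 and 0.0446 with the block. Without it these were 0.730 and 0.793. Among 15 feedback inhibitors other than *Spry2* and *Spry4*, *Errfi1* rose and *Dusp6*, a phosphatase of ERK, fell by 0.22. *Dusp6* and *Etv4*, like the sprouty genes, are usual transcriptional readouts of FGF signaling. The difference of *Spry1*, at 71.5 to 93.2 FPKM over the 9 samples, was 0.00, with an adjusted limma p of 0.959 with the block. Whether FGF receptor activity changed was not tested. None of 3 tested FGF ligand and binding protein genes passed between E2 and DMSO. All calls in these sentences are from limma with the block at an adjusted p under 0.05.

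**Figure D4:**
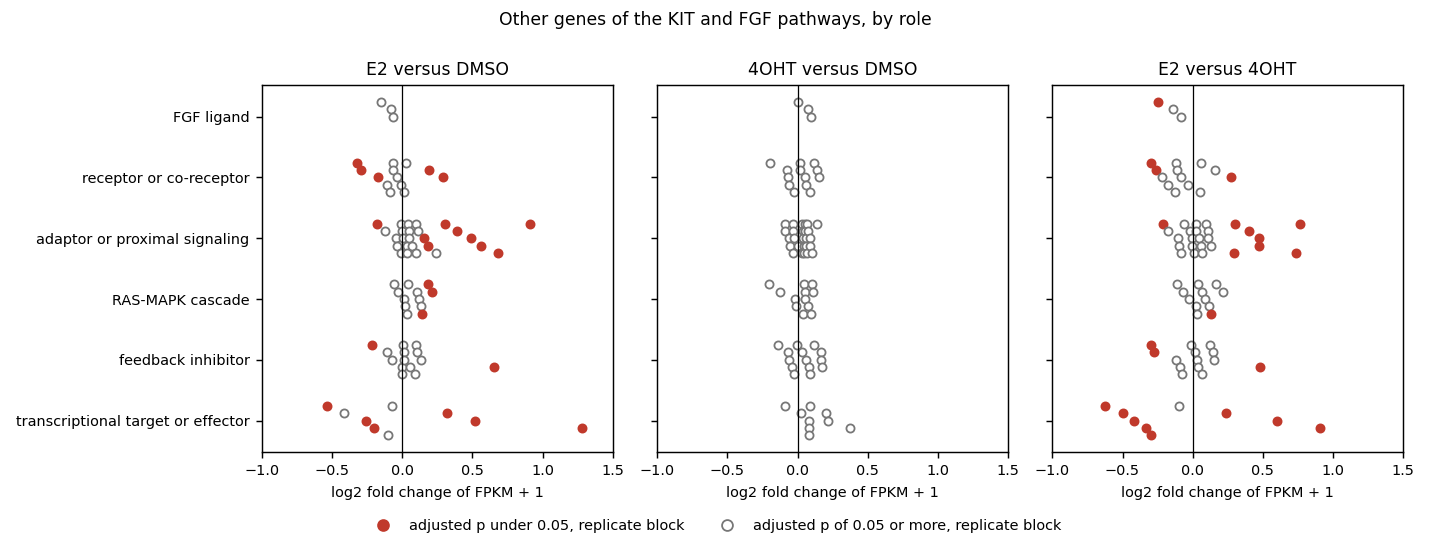
Log2 fold changes of FPKM + 1 (horizontal axis, -1 to 1.5) of 77 tested pathway genes other than the 10 members, by role, in the 3 comparisons, red and filled where the adjusted p from limma with the replicate block was under 0.05. The gene with an exact 0 is not drawn. Red points lie on both sides of 0 for both comparisons with E2, and there are none between 4OHT and DMSO.

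Between E2 and 4OHT none of the 78 genes passed without the block, where 0.159% of all rows did. With the block 24 passed, 13 higher and 11 lower with E2, or 30.8% against 16.2% of all tested rows. The limit given above for the list holds for these shares too. The higher genes included *Jak2*, *Stat5a* and *Pik3r1*, a regulatory subunit of PI3 kinase, with differences of 0.77, 0.74 and 0.47, as well as *Errfi1* (0.48), *Gpc4* (0.27), *Fos* (0.91), *Ets2* (0.60) and *Egr1* (0.24). The lower genes included *Ccnd1* (-0.62), *Fosl1* (-0.50), *Etv4* (-0.42), *Dusp6* (-0.30), *Gpc1* (-0.29), *Dusp4* (-0.28), *Pdgfb* (-0.26), *Fgfbp1* (-0.25) and *Fyn* (-0.21). Between 4OHT and DMSO none of the 78 passed in limma with or without the block, as none of all 11339 rows did, although 313 rows without and 1480 rows with the block had an unadjusted p under 0.05. The comparisons of E2 with DMSO and with 4OHT share the E2 samples. The 2 ligands were given at 1 nM and 100 nM, so that their effects are not compared at a matched dose.

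*Il17rd*, a membrane inhibitor of FGF signaling, was the only tested pathway gene of the list with an exact 0. It was listed at 0 in DMSO replicate 3 and E2 replicate 2 and lay between 6.61 and 7.43 FPKM in the other 7 samples.

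For the 3 members called with the block, the tested genes with the most similar pattern over the 9 samples were taken by Pearson's correlation of log2(FPKM + 1), as a description. Closest to *Kit* were *Sorl1*, a sorting receptor gene (r = 0.992), *Ddrgk1* (r = 0.989) and the kinesin gene *Kif13a* (r = 0.985). *Sorl1* was at 3.72, 0.540 and 0.374 FPKM with DMSO, 6.38, 2.11 and 1.17 FPKM with E2 and 3.10, 0.595 and 0.283 FPKM with 4OHT, so that it shared both the high replicate 1 and the higher E2 values. Closest to *Fgfrl1* were *Rell1*, *Extl3*, a glycosyltransferase gene of heparan sulfate synthesis, and *Nfe2l1*, at r = 0.985, 0.982 and 0.982. Closest to *Spry2* were *Dynlt1f*, *Sowahc* and *Mpp1*, at r = 0.947, 0.940 and 0.930. These genes were picked as the highest of all tested rows over 9 points that share condition and replicate number. A correlation does not take in the size of a change, and in some of these genes it was small. The means with DMSO and E2 were 18.1 and 19.2 FPKM for *Ddrgk1*, 10.6 and 11.4 for *Extl3*, and 5.11 and 5.37 for *Sowahc*.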

How the data were processed

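RNA was sequenced from 9 samples of FVB MOE cells, 3 per condition, with condition and replicate number taken from the labels. After trimming, the authors mapped reads on mm10 by TopHat 2.0.8b and computed expression for known genes of a UCSC annotation with Cufflinks and cuffdiff 2.1.1. The values the authors deposited are FPKM, and any further scaling between libraries is not given in the sources used here. Read counts were not used, nor were the sequenced reads per sample that the paper lists. Depth was approximated from the steps between low FPKM values. Its ratio between samples was sought over 1241 to 1405 weakly expressed genes per sample, set against DMSO replicate 1. The median of the 143 to 259 ratios nearest the most common ratio was taken. The absolute scale of depth was sought over 373 such genes with 1 annotated transcript. It was taken from the 103 of them nearest the most common value. Coordinates are from GENCODE on GRCm38, the assembly that mm10 names, and start regions from RefSeq on GRCm38.p6.

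Log2(FPKM + 1) of all 9 samples was fitted with limma 3.58.1 (R 4.3.3) with a variance trend, 1 coefficient per condition and Benjamini-Hochberg adjustment within each comparison, over the 11339 rows with at least 1 FPKM in at least 3 samples. The second fit added the replicate number as a block. Same-numbered samples deviated together from their condition means, with correlations of 0.52 to 0.83 (mean 0.69) over the 11094 tested rows without an exact 0, the rows set for this check, each above the required 0.1. Over all 11339 rows they were 0.05 to 0.29 (mean 0.16), with 4 of 9 pairs below 0.1. The pairing comes from the numbers in the labels, and the study's own test did not use it. With that test, cuffdiff at an FDR cutoff of 0.05, the paper names *Kit* among the genes raised by E2. Alternatives were another pseudocount, no filter, other scalings, fits to 6 samples, exact zeros as missing, a threshold of 0.01 and samples left out. Added after the data were seen were the block combined with a pseudocount of 0.1, with equal FPKM totals and with 1 replicate number left out.

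The genes named were all 10 members, up to 3 pathway genes per role, direction and comparison with the largest fold change among those called, pathway genes with an exact 0, the 3 genes most similar to each called member, and listed markers. *Spry1* was named in addition, as the other tested sprouty gene. The members and the gene lists were chosen with earlier results of these data known. The fits were tested on simulated data. One result on a pathway gene is not reported here.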

Additional observations from a re-analysis of the deposited data

How the results depend on the processing

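In the limma fits made here, the replicate block decides every call on a member. It moved the members called from 0 to 3 for E2 versus DMSO and from 0 to 2 for E2 versus 4OHT, also with exact zeros missing (3 and 2), equal FPKM totals (3 and 2) or a pseudocount of 0.1 (3 and 2), and it changed no call on a member for 4OHT versus DMSO. Over fits that left out 1 sample, or 1 replicate number with the block, the members called were 0 to 2 for E2 versus DMSO and 0 to 1 for E2 versus 4OHT. Without the block no alternative called a member. The fewest approximate reads behind a value were 111 for *Fgf7*, 118 for *Fgf2* and 167 for *Spry4*, beside 194 for *Kit* and 195 for *Fgfr3*. The part of depth in these results was not tested, and FPKM carry no count for a counting error.

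Over all tested rows, the calls for E2 versus DMSO went from 58 to 1702 with the block, 2105 with the block and zeros missing, 2041 with the block and equal totals, 1711 with the block and a pseudocount of 0.1, 36 with upper-quartile scaling, 32 without a filter, 8 in the 6 samples compared and 6 at a threshold of 0.01. They ranged from 8 to 491 when samples were left out. For 4OHT versus DMSO they went from 0 to 3 in the 6 samples compared and to 16 with the block and zeros missing, and ranged from 0 to 6 when samples were left out. For E2 versus 4OHT they went from 18 to 1840 with the block, 2435 with the block and zeros missing, 2027 with the block and equal totals, 1806 with the block and a pseudocount of 0.1, 37 with zeros missing, 10 with a pseudocount of 0.1, 9 without a filter, 8 in the 6 samples compared and 0 at a threshold of 0.01, and ranged from 0 to 215 when samples were left out.

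Of 623 log2 fold changes of members under alternatives, 51 changed sign, all of differences that passed no test. For E2 versus DMSO, *Fgfr2* became -0.036 with upper-quartile scaling and -0.022 with equal totals and the block. For 4OHT versus DMSO the same 2 settings gave -0.014 and -0.015 for *Fgfr3*, -0.040 and -0.042 for *Kitl*, -0.022 and -0.022 for *Fgf7*, and -0.028 and -0.029 for *Spry4*, and a pseudocount of 0.1 gave 0.017 for *Kit* with and without the block. With samples left out, the E2 versus DMSO differences ranged from -0.19 to 0.18 for *Fgfr2*, from -0.18 to 0.032 for *Kitl* and from -0.35 to 0.25 for *Fgf7*. Those of 4OHT versus DMSO ranged from -0.53 to 0.61 for *Kit*, -0.26 to 0.11 for *Fgfr2*, -0.059 to 0.14 for *Fgfr3*, -0.10 to 0.11 for *Kitl*, -0.25 to 0.018 for *Fgf2*, -0.31 to 0.31 for *Fgf7* and -0.087 to 0.068 for *Spry4*. Those of E2 versus 4OHT ranged from -0.093 to 0.21 for *Fgfr2*, -0.16 to 0.012 for *Kitl*, -0.33 to 0.22 for *Fgf7* and -0.026 to 0.084 for *Spry2*. The cause of these changes was not tested.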

Other observations

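Ligands and receptors of the same families outside the 10 genes differed widely in level, and those named here were chosen after their values were seen. *Fgf18* was at 12.1 to 19.3 FPKM over the 9 samples, above *Fgf2* and *Fgf7* in each, while 19 genes of the group of 22 FGF ligands and binding proteins did not reach 1 FPKM in 3 samples. *Fgfr4* was at 1.13 to 2.43 FPKM, near *Fgfr3*. *Pdgfb* was at 126 to 236 FPKM and *Pdgfa* at 33.5 to 47.4, whereas the receptor genes *Pdgfra* and *Pdgfrb* were at most 0.111 and 0.0523 FPKM. *Csf1* was at 107 to 134 FPKM and its receptor gene *Csf1r* at 3.23 to 5.94.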
